A study of Mus musculus with 14 samples.

Results

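Ubiquitin is a small protein that cells attach to other proteins to send them to the proteasome, to move them between compartments or to change their activity. An activating enzyme (E1) charges ubiquitin, a conjugating enzyme (E2) carries it and, with a ligase (E3), places it on a substrate, and deubiquitinating enzymes, of which the ubiquitin-specific proteases (USP) are the largest family, take it off again. In neurons this cycle sets the turnover of synaptic proteins, and chains of ubiquitin are found on the Tau aggregates of tauopathies. The genes described here are those named Uba1 to Uba7, Ube2 followed by a letter, or Usp followed by a number, leaving out Usp18. The rule found 90 genes in both count tables, of 26570 genes in the basal table and 25933 in the learning table. They comprised 6 E1 genes, 34 E2 genes and 48 USP genes, together with Ube2cbp and Usp6nl, which carry such a name but encode an E2-binding protein and a GTPase-activating protein.

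RNA was sequenced from the dorsal hippocampus of male mice on the C57BL6 strain (C57BL6/J in the study's methods), all aged 8 months. THY-Tau22 mice carry a human Tau transgene with disease mutations that the Thy1 promoter drives in neurons, and their WT littermates were the controls. In the basal experiment resting mice came from the home cage (WT basal, n = 3, and TAU basal, n = 2). In the learning experiment WT mice received saline and either stayed in the home cage (WT VEH_HC, n = 3) or learned the water maze (WT VEH, n = 2), while trained THY-Tau22 mice received carbon nanospheres alone (CSP; TAU VEH, n = 2) or CSP-TTK21, nanospheres that carry an activator of the acetyltransferases CBP and p300 (TAU MOL, n = 2). TAU VEH and WT VEH therefore differed in genotype and in vehicle, which cannot be told apart, and 3 further libraries of the learning experiment that the study set aside were not analysed here.

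The libraries held from 28639121 to 37681155 counts in the basal and from 24693713 to 52180305 in the learning experiment, of which the 90 genes took from 0.561% to 0.656%. Levels are given as CPM, the count of a gene scaled to the total of its library, with TMM factors within each experiment. A gene was called when the edgeR quasi-likelihood test gave a Benjamini-Hochberg adjusted p under 0.05 over all genes tested together with a log2 fold change above 0.2 in size. Of the 90 genes, 86 had enough counts to be tested in either experiment. The other 4 were Ube2nl, Ube2u, Usp44 and Usp9y, which had at most 1, 7, 2 and 12 counts in a library. All 9 neuron markers and all 9 markers of dentate gyrus, CA1 and CA3 in the tables were detected in every group. The libraries differed in choroid plexus RNA: the summed level of 14 choroid plexus markers ran from 158 to 415 CPM in WT VEH_HC, from 2189 to 3155 in WT VEH, from 460 to 539 in TAU VEH, with 1069 to 1178 for TAU MOL. In bulk tissue, fewer cells of a type and less RNA per cell cannot be told apart.

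The promoters of 4 genes are shown as examples of the called genes described below, chosen after their values were seen: Uba3 rose and Usp2 fell with training, and Usp34 was higher and Usp21 lower in trained THY-Tau22 mice. Each run holds 250 bases before and 50 after a RefSeq transcription start, on the strand of the gene and in build GRCm38.p6, for Uba3 chr6:97205598-97205897 (minus strand), Usp2 chr9:44084670-44084969 (plus), Usp34 chr11:23306645-23306944 (plus) and Usp21 chr1:171287912-171288211 (minus). Capitals mark the GC box GGGCGG, bound by Sp1 family factors, and TGACG, the half-site of the cAMP response element at which CREB recruits CBP, each on either strand.
Uba3: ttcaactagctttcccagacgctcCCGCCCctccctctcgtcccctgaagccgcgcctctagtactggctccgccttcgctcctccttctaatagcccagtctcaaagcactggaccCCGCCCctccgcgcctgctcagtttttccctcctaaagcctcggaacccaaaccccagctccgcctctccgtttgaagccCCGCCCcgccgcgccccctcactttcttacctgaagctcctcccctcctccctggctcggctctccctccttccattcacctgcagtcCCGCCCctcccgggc
Usp2: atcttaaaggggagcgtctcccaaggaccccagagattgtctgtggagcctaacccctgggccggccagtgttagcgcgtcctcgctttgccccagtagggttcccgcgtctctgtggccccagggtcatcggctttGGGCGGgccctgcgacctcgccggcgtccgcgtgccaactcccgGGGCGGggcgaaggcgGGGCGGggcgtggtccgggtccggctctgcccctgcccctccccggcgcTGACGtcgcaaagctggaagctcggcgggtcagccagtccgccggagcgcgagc
Usp34: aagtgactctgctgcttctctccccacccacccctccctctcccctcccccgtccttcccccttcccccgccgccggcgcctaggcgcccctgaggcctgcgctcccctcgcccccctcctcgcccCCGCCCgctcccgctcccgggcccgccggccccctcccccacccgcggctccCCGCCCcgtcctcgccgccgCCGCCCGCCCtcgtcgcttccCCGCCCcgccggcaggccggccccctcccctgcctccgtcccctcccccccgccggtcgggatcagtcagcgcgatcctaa
Usp21: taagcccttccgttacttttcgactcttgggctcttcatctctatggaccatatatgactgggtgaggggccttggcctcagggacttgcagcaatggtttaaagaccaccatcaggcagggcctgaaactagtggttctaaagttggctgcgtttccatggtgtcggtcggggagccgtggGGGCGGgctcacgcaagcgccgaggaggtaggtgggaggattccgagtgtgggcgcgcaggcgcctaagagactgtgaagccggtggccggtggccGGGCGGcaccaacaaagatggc

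All 4 promoters held the GC box, with 4 copies in Uba3, 3 in Usp2, 5 in Usp34 and 2 in Usp21, and only Usp2 held the half-site, with 1 copy. The Usp2 start lies 17899 bases inside the gene as annotated on mm9, and the other starts within 30 bases of the annotated gene start. RefSeq promoters were at hand for 69 of the 90 genes, 83 promoters in all. The GC box stood in 72.3% of them and in 35.7% of all 32851 promoters of the same length. TGACG stood in 27.7% against 20.8%, and the full element TGACGTCA, which contains it, in 3.61% against 1.79%. These matches describe letters in a window and say nothing of binding.

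Levels are compared between genes per kilobase of exon, in untrained WT VEH_HC mice. The 86 tested genes ran from 0.213 to 126 CPM per kb with a median of 10.1, against a median of 3.67 over 16780 tested genes with a length. The median was 16.4 for the 32 tested E2 genes, 10.2 for the 6 E1 genes and 6.62 for the 46 USP genes. The highest level was that of Uba1, the main E1 of ubiquitin, at 126 ± 5.04 CPM per kb (SD, n = 3). Ube2ql1, an E2-like gene, followed at 108 ± 1.76 CPM per kb, below Uba1 by more than the spread of either. Usp22, which takes ubiquitin off histone H2B in the SAGA complex, stood at 77.6 ± 4.73, and Ube2m, the E2 of the ubiquitin-like protein NEDD8, at 70.8 ± 3.55 CPM per kb, so that these neighbours lay within their summed SDs. Usp5, which breaks down free ubiquitin chains, came next at 63.0 ± 2.68 CPM per kb.

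At the lower end stood Usp43 at 0.213 ± 0.0306, Usp50 at 0.233 ± 0.0334 and Ube2t at 0.260 ± 0.0344 CPM per kb, neighbours that their spread did not separate. Usp51 at 0.327 ± 0.0958 and Ube2c at 0.431 ± 0.130 CPM per kb came next. Ube2c and Ube2t are known from dividing cells, where they serve the anaphase-promoting complex and the repair of DNA crosslinks. Among the E1 genes, those for SUMO (Uba2, 11.7 ± 0.630) and NEDD8 (Uba3, 11.0 ± 1.66) lay in the middle, and Uba6, the other E1 of ubiquitin, and Uba7, the E1 of ISG15, were low at 1.07 ± 0.0696 and 1.01 ± 0.168 CPM per kb. Some of these counts are uncertain, because only uniquely aligned reads were counted: 50-base stretches of exon that occur again in the mm9 genome made up 97.4% of Ube2s, 45.7% of Usp9x, 27.9% of Ube2d3 and 25.6% of Ube2n, and over 10% in 17 of the 90 genes.

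**Figure D1:**
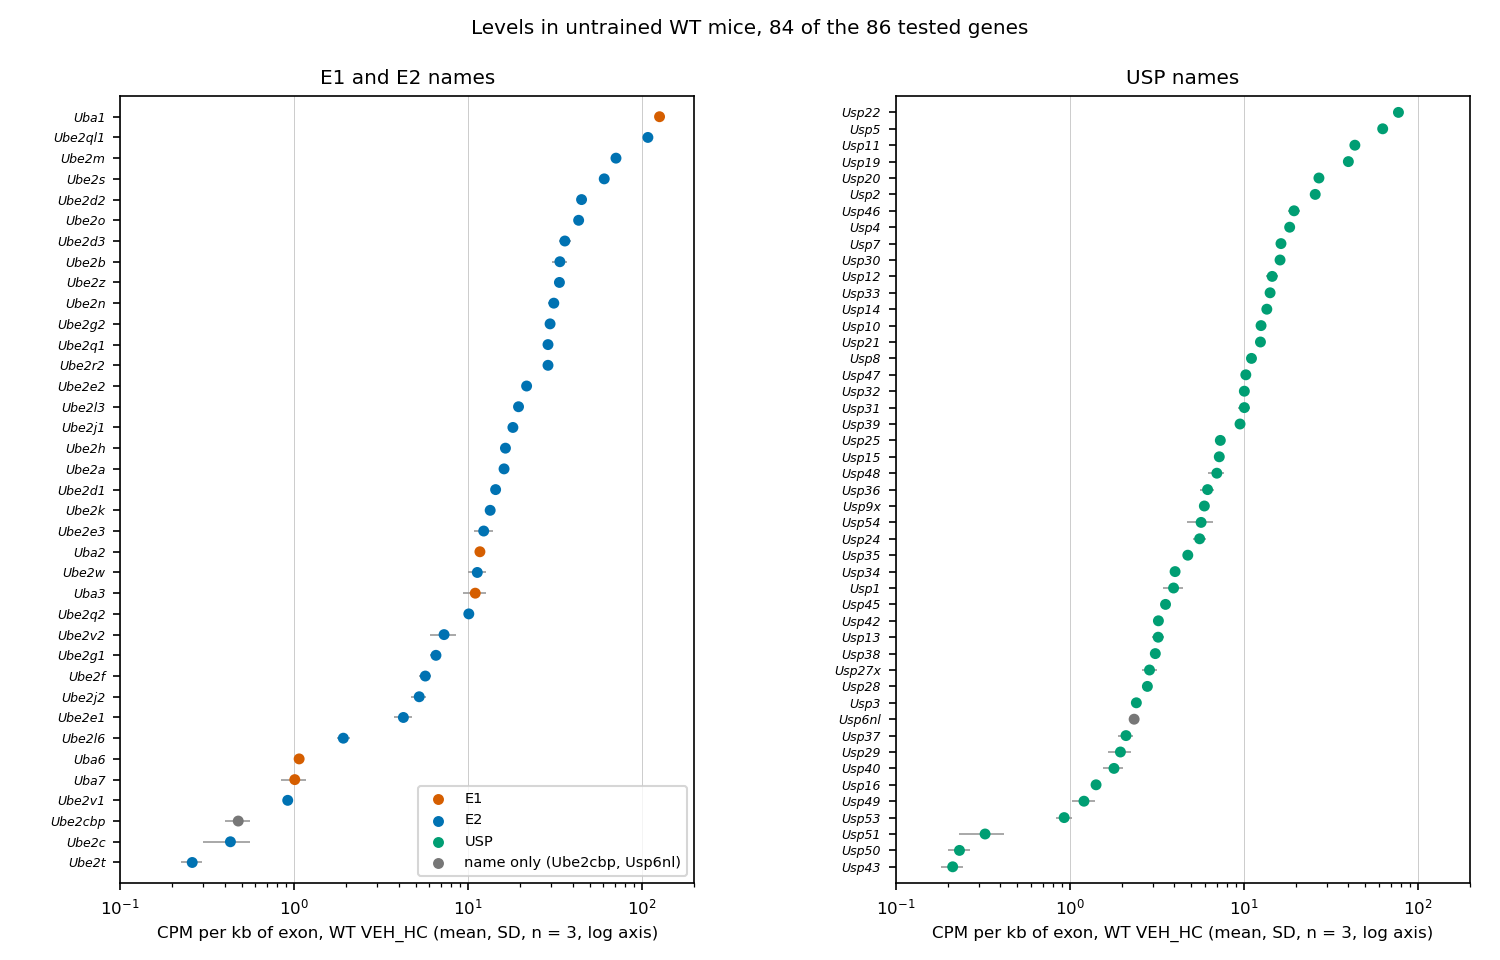
Level of 84 of the 86 tested genes in WT VEH_HC, as CPM per kilobase of exon on a log axis; points are means, lines the SD of the 3 libraries, and colours give the role. Uba1 led at 126 and Usp43 was lowest at 0.213 CPM per kb.

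The basal experiment asks whether the genes differ between THY-Tau22 and WT mice that had not been trained. None of the 86 was called in either direction. Over all 16324 genes tested, 0.00613% were called higher and 0.0184% lower. No gene of the 86 reached an unadjusted p under 0.05 in edgeR (4.92% of all genes did). DESeq2 called 0 of the 90 and gave 1 an unadjusted p under 0.05, against 41 and 660 of all 24594 genes. The lowest adjusted p was 0.901. The SE of the log2 fold changes of the 86 genes had a median of 0.127, wider than in the learning experiment (0.0758 to 0.0834 over its comparisons), so that small differences were harder to detect.

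Both TAU basal libraries lay above all 3 WT basal libraries for 3 of the 86 genes and below them for 5, against 9.01% and 9.49% of all genes. The median log2 fold change of the 86 was 0.03, with 35 of 46 USP genes and 10 of 32 E2 genes above 0, against 48.4% of all genes. Both summaries turned on the TAU basal libraries: without replicate 1 the median was 0.09 and 28 of the 86 genes had an unadjusted p under 0.05 (21.4% of all genes), and without replicate 2 the median was -0.04 and 1 gene did (3.99% of all). With the trend of fold change on exon GC content and length removed, 3 of the 86 did (7.17% of all). None was called in these fits, in which a lone TAU library is assumed to vary like the WT libraries where 1 was left out. The lowest unadjusted p was that of Usp9x, a large deubiquitinase of neuronal development encoded on the X chromosome (mm9 chrX:12648624-12759008). Its level was 119, 102 and 116 CPM in WT basal and 113 and 169 CPM in TAU basal, a log2 fold change of 0.33 ± 0.16 (SE; unadjusted p = 0.071 in the edgeR fit across all genes). A single TAU basal library was thus high, and the other lay within the WT range.

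The same library was high for Usp34, a large deubiquitinase of the Wnt pathway (71.4, 53.5 and 75.6 CPM in WT basal, 69.3 and 101 in TAU basal). It was also high for Usp53 (8.86, 6.15 and 7.38 CPM against 7.32 and 13.1). Usp21, which acts on histone H2A among other substrates, ran at 48.9, 51.3 and 48.0 CPM in WT basal and 47.2 and 34.3 in TAU basal, so that both TAU libraries were below all WT libraries, one of them by less than 1 CPM. The library that stood apart, TAU basal replicate 2, also differed in base composition: the correlation across the 86 genes between exon GC content and its level relative to the mean of the 5 libraries was -0.66 (Spearman's rho), against 0.70 in TAU basal replicate 1 and 0.13 to 0.37 in WT basal. Its choroid plexus markers summed to 1978 CPM, against 700 in TAU basal replicate 1 and 594 to 711 in WT basal. In both TAU basal libraries the astrocyte markers (2899 to 3163 CPM, against 2563 to 2625 in WT basal) and the microglia markers (305 to 319, against 277 to 290) were higher and the oligodendrocyte markers (6244 to 6484, against 6665 to 11034) lower than in all WT basal libraries, with no marker called, and their part in the values above was not tested.

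Training was examined by setting WT VEH against WT VEH_HC. Of 86 genes, 5 rose (5.81%, against 5.35% of all 16820 genes tested) and 7 fell (8.14%, against 3.05%). The 5 that rose were 2 of 6 E1 genes (Uba6 and Uba3), 2 of 32 E2 genes (Ube2g1 and Ube2w, 6.25%) and 1 of 46 USP genes (Usp25). The 7 that fell were all USP genes (Usp2, Usp13, Usp10, Usp11, Usp22, Usp5 and Usp19). Across the 86 genes the log2 fold changes had a median of -0.03, against -0.0028 for all genes.

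Uba6 (chr5:86539745-86601828) ran at 7.02, 6.83 and 7.72 CPM in WT VEH_HC and at 11.4 and 10.1 CPM in WT VEH. Both trained libraries were above all home-cage libraries, with a log2 fold change of 0.58 ± 0.12 (SE; edgeR adjusted p = 0.0172). Uba3, the catalytic subunit of the NEDD8 E1 (chr6:97133664-97155636), ran at 27.8, 24.6 and 33.1 CPM untrained and 41.1 and 35.3 CPM trained, a rise of 0.42 ± 0.11 on the log2 scale (edgeR adjusted p = 0.0384). Uba1, by contrast, was lower after training without passing the test, with 627, 612 and 579 CPM untrained, 456 and 552 trained and a log2 fold change of -0.27 ± 0.08 (edgeR adjusted p = 0.0591). Uba2 and Uba7 were not called, with log2 fold changes of 0.19 and -0.47 ± 0.17.

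Ube2g1, an E2 of protein quality control at the endoplasmic reticulum, rose from 28.7, 28.8 and 32.4 CPM to 38.5 and 38.4 CPM (log2 fold change 0.36 ± 0.07, edgeR adjusted p = 0.0193). Ube2w, which can attach ubiquitin to the amino terminus of proteins, ran at 29.1, 29.5 and 35.8 CPM untrained and at 39.3 and 40.2 CPM trained (0.34 ± 0.09 on the log2 scale, edgeR adjusted p = 0.0444). Usp25, a deubiquitinase of the ER degradation pathway, rose from 32.1, 31.0 and 34.1 CPM to 38.5 and 39.5 CPM (log2 fold change 0.27 ± 0.06, edgeR adjusted p = 0.0322).

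The largest fall among the called genes was that of Usp2 (chr9:43875104-43903708), a deubiquitinase known from the circadian clock, at 107, 113 and 119 CPM in WT VEH_HC and 85.2 and 79.1 CPM in WT VEH. Its log2 fold change was -0.46 ± 0.08 (edgeR adjusted p = 0.00961), and the groups were well apart, although its exons overlap those of Rnf26 on the other strand and the kit did not mark strand. Usp13 fell from 24.9, 26.2 and 22.5 CPM to 19.1 and 19.4 CPM (log2 fold change -0.35 ± 0.08), and Usp10, a deubiquitinase bound to stress granule proteins, from 67.3, 72.3 and 66.7 CPM to 52.9 and 55.9 CPM (-0.34 ± 0.06). Usp11 fell from 217, 208 and 194 CPM to 154 and 177 CPM (-0.32 ± 0.07), and Usp22 from 383, 400 and 355 CPM to 291 and 319 CPM (-0.32 ± 0.07). The edgeR adjusted p of these 4 genes lay between 0.0139 and 0.0283. Usp5 (-0.31 ± 0.07) and Usp19 (-0.23 ± 0.06), an enzyme anchored in the ER membrane, were the smallest falls.

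**Figure D2:**
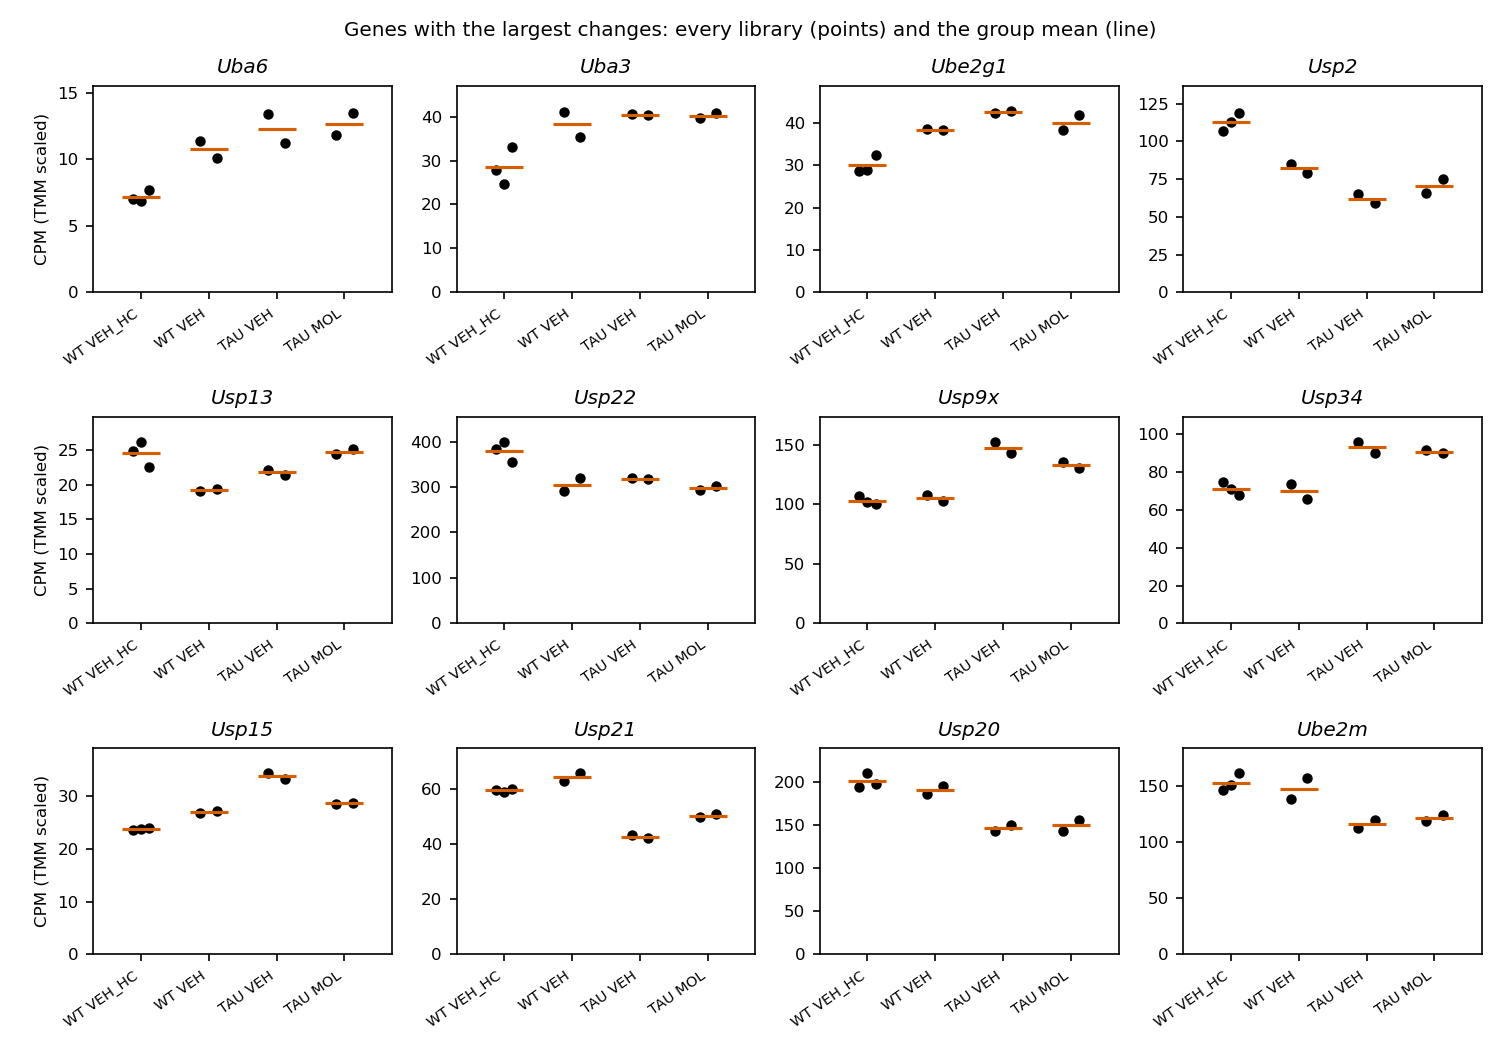
CPM of 12 genes among the leading calls in each of the 9 learning libraries (points), with the group mean as a line; axes start at 0. Uba6, Uba3 and Ube2g1 were higher, and Usp2, Usp13 and Usp22 lower, in both WT VEH libraries than in all WT VEH_HC libraries, and Usp9x, Usp34, Usp15, Usp21, Usp20 and Ube2m separated TAU VEH from WT VEH.

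The size of the changes moved with base composition. Over the 86 genes the training log2 fold change correlated with exon GC content at rho = -0.63 (Spearman, a description across genes that share libraries), against -0.28 over all genes. The genes that rose had a median GC content of 38.9%, from 37.6% to 42.6%, and those that fell one of 52.8%, from 48.4% to 56.6%. When a smooth trend of fold change on GC content and length was taken out of the counts, 2 genes rose (2.95% of all genes did) and 5 fell (1.47% of all). Uba6 stayed among the risen with 0.39 (edgeR adjusted p = 0.0391) and Usp2, Usp10, Usp11, Usp13 and Usp22 among the fallen, Usp2 with -0.39 (edgeR adjusted p = 0.0293). Ube2g2, an E2 of the ER whose exons overlap those of Sumo3, is named here after its value was seen and was newly called at 0.31, and Uba3 was no longer called at 0.19 (edgeR adjusted p = 0.222). Ube2g1 (0.19), Ube2w (0.09), Usp25 (0.14), Usp5 (-0.24) and Usp19 (-0.14) also lost their calls, with edgeR adjusted p between 0.0566 and 0.433.

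The number of training calls moved with single libraries, over all genes as among the 86. Without WT VEH replicate 1 none of the 86 was called (0.422% of all genes), and without WT VEH replicate 2 there were 3 calls (1.63% of all), in fits where the lone WT VEH library is assumed to vary like the other groups. There were 4 calls without WT VEH_HC replicate 1 (3.67% of all), 9 without WT VEH_HC replicate 2 (5.7% of all) and 23 without WT VEH_HC replicate 3 (16.7% of all), the last with 12 risen and 11 fallen. All 14 choroid plexus markers rose in WT VEH, and with their mean level as a covariate 0 of the 86 genes were called, as was 0% of all genes, but this level separates the same groups, so that the effect of training and that of choroid plexus RNA cannot be told apart. The 9 markers of dentate gyrus, CA1 and CA3 summed to 1534 to 1672 CPM in WT VEH and 1717 to 1747 in WT VEH_HC, with 2 called lower, and 1 of 6 microglia markers (sums of 288 to 299 and 269 to 306 CPM) and 1 of 6 endothelial markers (177 to 193 and 145 to 241 CPM) were called higher. The 6 astrocyte markers summed to 2144 to 2157 CPM in WT VEH and 1972 to 2103 in WT VEH_HC, with none called. The 6 oligodendrocyte markers summed to 6989 to 7212 and 3676 to 7372 CPM, again with none called. The part of all these markers in the training calls was not tested.

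The comparison of TAU VEH with WT VEH asks how trained THY-Tau22 mice differ from trained WT mice. It gave the most calls in the edgeR fit by group alone, and the genes called higher were all USP genes. Training gave more with the trend on GC content and length removed (7 against 3). It also did with the replicate number as a block in the fit (23 against 19). Of the 86 genes, 8 were higher (9.3%, against 3.61% of all genes) and 8 lower (9.3%, against 10.8%). Those higher were Usp29, Usp9x, Usp34, Usp15, Usp45, Usp24, Usp47 and Usp32. Those lower were Usp21, Usp2, Usp20, Usp19 and Usp35 with the E2 genes Ube2m, Ube2r2 and Ube2o. None of the 6 E1 genes was called, and their log2 fold changes ran from -0.03 to 0.33. The median log2 fold change of the 86 was 0.07, against 0.0041 over all genes. Above 0 were 32 of 46 USP genes and 17 of 32 E2 genes, against 50.7% of all genes.

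Usp9x ran at 108 and 103 CPM in WT VEH, at 107, 102 and 100 CPM in WT VEH_HC and at 152 and 143 CPM in TAU VEH. It was thus level in WT mice with and without training and higher in both TAU VEH libraries, by 0.49 ± 0.07 on the log2 scale (edgeR adjusted p = 0.00127). Usp34 (chr11:23206916-23389744) showed the same order, with 73.9 and 65.7 CPM in WT VEH and 96.0 and 90.3 CPM in TAU VEH (0.42 ± 0.08, edgeR adjusted p = 0.00452). Both genes are long, with 17363 and 17637 bases of exon, and both overlap another annotated gene in their exons, Gm15027 and Ahsa2.

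Usp29, a gene of the imprinted Peg3 region, was scarce, with 4.04 and 4.66 CPM in WT VEH and 6.61 and 5.85 CPM in TAU VEH. Its log2 fold change of 0.53 was the largest of the higher genes and had the widest error, 0.16 (edgeR adjusted p = 0.045). Usp15, a deubiquitinase of growth factor signalling, rose from 26.8 and 27.1 CPM to 34.4 and 33.2 CPM (0.33 ± 0.07, edgeR adjusted p = 0.00731). Usp45, known from DNA repair, ran at 26.6 and 24.9 CPM in WT VEH and 33.9 and 29.8 CPM in TAU VEH (0.31 ± 0.08). The other higher genes, Usp24, Usp47 and Usp32, are named after their values were seen and differed by 0.30, 0.29 and 0.28 with an SE of 0.06 to 0.09.

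The largest difference among the called genes was that of Usp21 (chr1:173212076-173218122), with 62.8 and 65.5 CPM in WT VEH, 59.5, 58.6 and 60.0 CPM in WT VEH_HC and 43.1 and 42.0 CPM in TAU VEH. The TAU VEH libraries lay far below every WT library, by -0.59 ± 0.07 on the log2 scale against WT VEH (edgeR adjusted p = 0.000993). It was called in 13 of 14 alternatives of the processing, all but the fit with the choroid plexus covariate, with an adjusted p from edgeR or DESeq2 between 1.27e-09 and 0.276. Usp2, which had fallen with training in WT mice, was lower again in TAU VEH, at 64.9 and 59.1 CPM (-0.40 ± 0.09 against WT VEH, edgeR adjusted p = 0.00924). The 2 comparisons share the WT VEH libraries.

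Usp20, a deubiquitinase found in complexes with the von Hippel-Lindau ligase, ran at 186 and 196 CPM in WT VEH and 144 and 151 CPM in TAU VEH (-0.37 ± 0.07, edgeR adjusted p = 0.00524). Ube2m fell short of WT VEH (139 and 157 CPM) with 113 and 120 CPM in TAU VEH, a log2 fold change of -0.34 ± 0.08 (edgeR adjusted p = 0.012). Usp19 was at 177 and 178 CPM in WT VEH and 147 and 138 CPM in TAU VEH (-0.32 ± 0.06). Ube2r2, an E2 of the cullin ligases, Ube2o, which joins E2 and E3 activity in one protein, and Usp35 are named after their values were seen and differed by -0.31, -0.29 and -0.29.

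**Figure D3:**
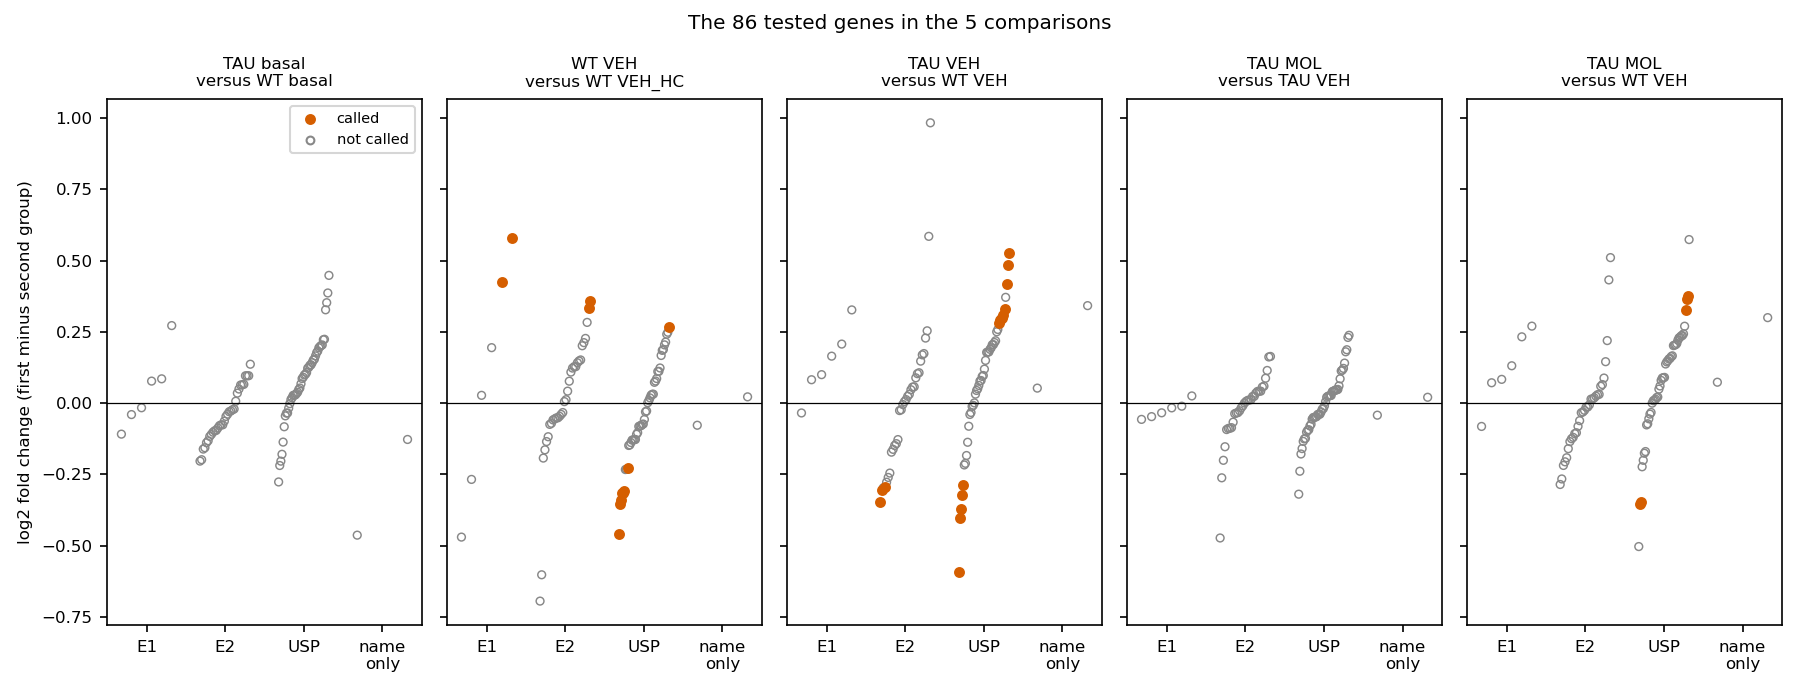
Log2 fold change of each of the 86 tested genes (points, sorted within role) in the 5 comparisons; filled points were called. No point is filled in the basal comparison or between TAU MOL and TAU VEH, and the filled points among the E1 genes are the 2 that rose with training.

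Base composition moved with these changes as well. The log2 fold change of the 86 genes correlated with GC content at rho = -0.54, against -0.52 over all genes. The 8 higher genes had a median GC content of 43.6% and a median exon length of 6953 bases, the 8 lower genes 56.0% and 4829 bases. With the trend on GC content and length removed, no gene of the 86 was higher (0.565% of all genes) and 3 were lower (2.44%), namely Usp21 at -0.46 (edgeR adjusted p = 0.00786), Ube2r2 at -0.33 (edgeR adjusted p = 0.0431) and Ube2d1 at -0.38 (edgeR adjusted p = 0.0385), the last also named after its value was seen. Usp9x stood at 0.26 with an edgeR adjusted p of 0.0593. The other higher genes stood between 0.14 and 0.40, with Usp34 and Usp15 at 0.19, and among the lower genes Usp2 stood at -0.23, Usp20 at -0.21, Usp19 at -0.10, Ube2m at -0.02, Ube2o at -0.0083 and Usp35 at 0.0061. In single libraries the GC trend lined up with the groups, so that the libraries' base composition and the groups cannot be told apart. Relative to the mean of the 9 libraries, the level of the 86 genes correlated with GC content at 0.51 to 0.75 in WT VEH_HC, -0.04 and 0.16 in WT VEH, -0.77 and -0.62 in TAU VEH, with -0.58 and -0.67 for the TAU MOL libraries.

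The scaling also set the balance between directions. By library size alone, without TMM, 28 of the 86 genes were higher (32.6%, against 15.3% of all genes) and 3 lower (3.49%, against 6.06%), with the median of all genes moved to 0.15. When a single library was left out, the remaining one of its group again being assumed to vary like the other groups, calls fell among the 86 and over all genes. There were 4 without TAU VEH replicate 1 (5.29% of all genes), 8 without TAU VEH replicate 2 (7.17%), 10 without WT VEH replicate 1 (7.07%) and 7 without WT VEH replicate 2 (7.36%). Relative to WT VEH, 13 of 14 choroid plexus markers were lower in TAU VEH. With their level as a covariate 0 of the 86 genes were called, as was 0% of all genes, and the level separates these groups too, so that it and the difference between the groups cannot be told apart.

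Markers of other cell types also differed between TAU VEH and WT VEH. The summed level of 9 neuron markers was 13690 to 14104 CPM in TAU VEH and 18136 to 18193 in WT VEH, with 3 of them called lower and a median log2 fold change of 0.09. The 9 markers of dentate gyrus, CA1 and CA3 summed to 1313 to 1324 CPM in TAU VEH and 1534 to 1672 in WT VEH, with 2 called lower, and 6 endothelial markers to 139 to 154 and 177 to 193 CPM, with 1 called lower. The 6 astrocyte markers summed to 2429 to 2697 CPM in TAU VEH and 2144 to 2157 in WT VEH, with 2 called higher. Of 6 microglia markers (282 to 310 CPM in TAU VEH and 288 to 299 in WT VEH) 1 was called lower, and of 7 thalamus markers (102 to 106 and 88.3 to 111 CPM) 1 was called higher and 1 lower. None of these markers was at 0 in any group, and their part in the calls among the 86 genes was not tested.

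**Figure D4:**
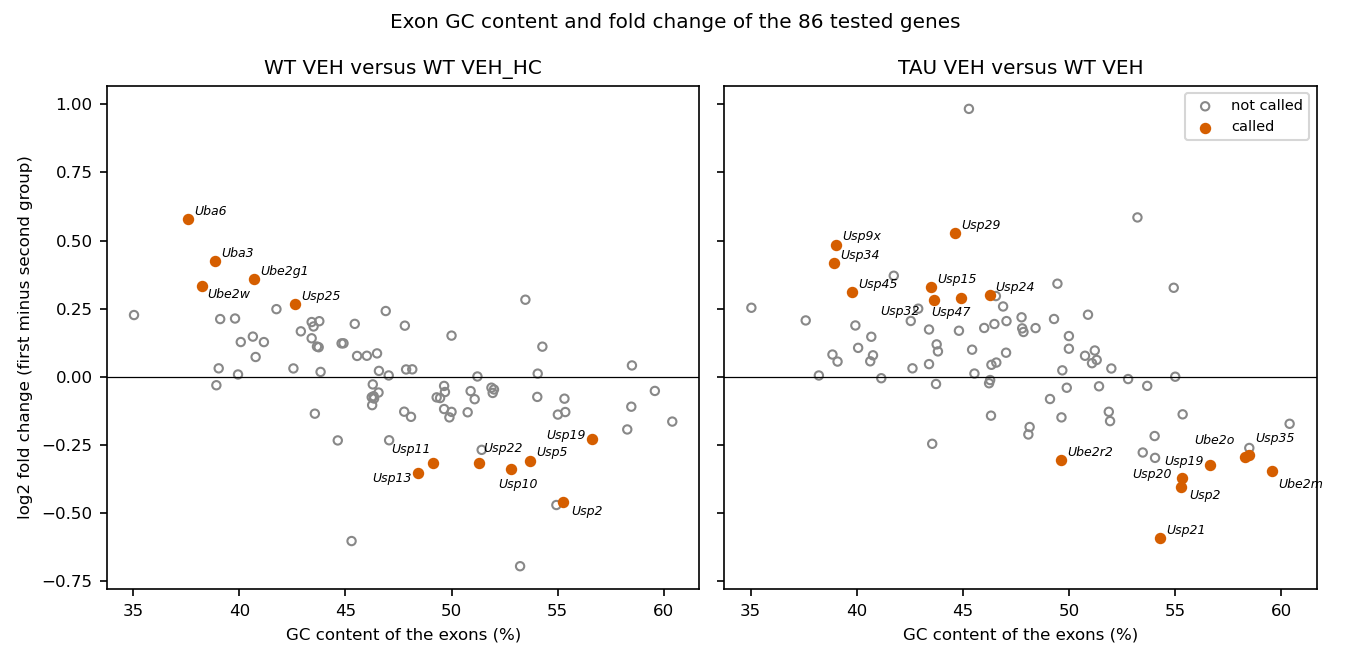
Exon GC content (percent) of the 86 tested genes against log2 fold change, with training on the left and TAU VEH against WT VEH on the right; filled points were called and are named. Higher genes lie at low GC content, such as Usp9x at 39.0%, and lower genes at high GC content, such as Ube2m at 59.6%.

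The 16 genes called in trained mice can be set beside the basal experiment, which shares no library with it. All 8 genes higher in TAU VEH had a basal log2 fold change above 0, from 0.07 to 0.35, where 35 of 46 USP genes were above 0 in all, and of the 8 lower genes 4 were below 0. The basal libraries disagreed: in TAU basal replicate 2, 8 of the 8 higher genes lay above the WT basal mean, with a median log2 ratio of 0.42, and in replicate 1 only 3 of 8 did, with a median of -0.01. The same held for the lower genes, of which 1 of 8 was above the WT mean in replicate 2 and 6 of 8 in replicate 1. Replicate 2 was the library with the negative GC correlation, as TAU VEH was.

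**Figure D5:**
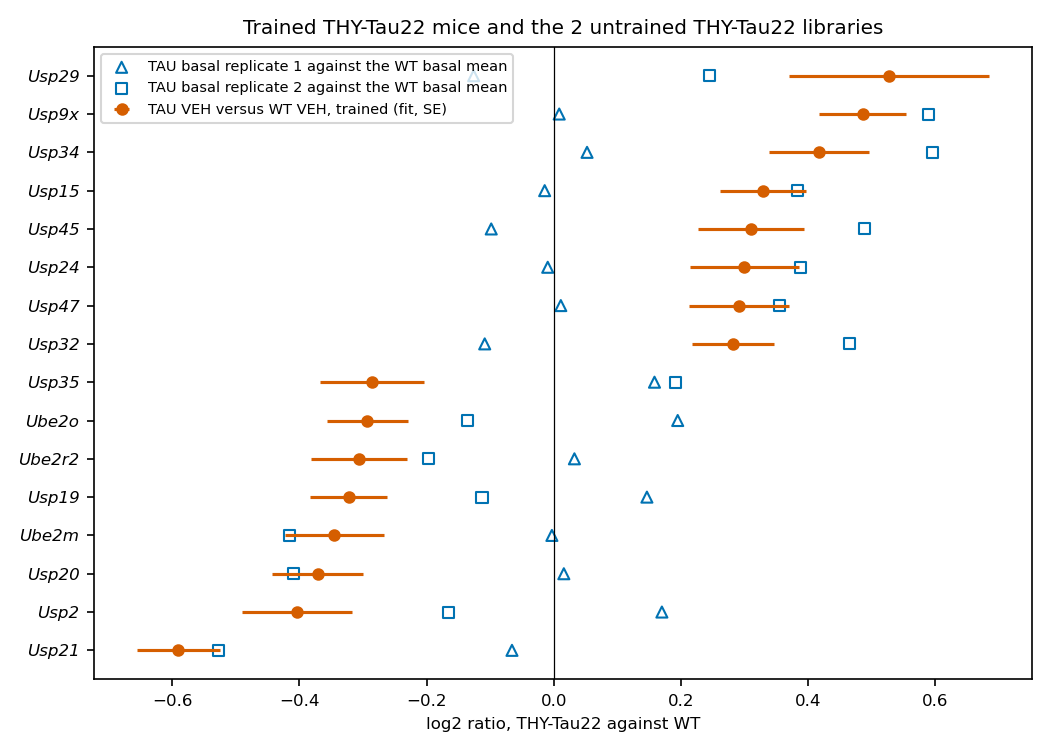
The 16 genes called between TAU VEH and WT VEH: the fitted log2 fold change with its SE (filled circles) and the log2 ratio of each untrained TAU basal library to the WT basal mean (triangles, replicate 1; squares, replicate 2). The squares follow the circles for the 8 higher genes, with a median of 0.42, and the triangles stay around 0.

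CSP-TTK21 was tested by setting TAU MOL against TAU VEH. None of the 86 genes was called in either direction, as was none of the 16820 genes tested (0% higher and 0% lower). An unadjusted p under 0.05 was reached by 4 of the 86 in edgeR, against 6.33% of all genes. DESeq2 gave 4 of the 90 such a p, against 772 of all 25933 genes, and called 0 of the 90 and 54 genes in all. Log2 fold changes ran from -0.06 to 0.03 for the E1 genes, from -0.47 to 0.16 for the E2 genes and from -0.32 to 0.24 for the USP genes.

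The lowest unadjusted p belonged to Usp21, at 43.1 and 42.0 CPM in TAU VEH and 49.7 and 50.7 CPM in TAU MOL. Both libraries with the activator were higher, by 0.24 ± 0.07 on the log2 scale, with an edgeR adjusted p of 0.414. Usp15 was lower, at 28.6 and 28.8 CPM in TAU MOL against 34.4 and 33.2 CPM in TAU VEH (-0.24 ± 0.07, edgeR adjusted p = 0.428). Usp9x ran at 135 and 130 CPM in TAU MOL (-0.16 ± 0.07, edgeR adjusted p = 0.758), and Usp2 at 65.8 and 75.0 CPM (0.18 ± 0.09, edgeR adjusted p = 0.815). Usp34, Usp20 and Ube2m differed by -0.04, 0.02 and 0.06.

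TAU MOL against WT VEH gave 3 higher genes (3.49%, against 0.612% of all genes) and 2 lower ones (2.33%, against 5.02%). These groups differed in genotype, in nanospheres against saline and in the activator, which cannot be told apart. The higher genes were Usp34 (0.38 ± 0.08, edgeR adjusted p = 0.0195), Usp13 (0.37 ± 0.09, edgeR adjusted p = 0.032) and Usp9x (0.33 ± 0.07, edgeR adjusted p = 0.0196). The lower genes were Usp21 (-0.35 ± 0.06, edgeR adjusted p = 0.0132) and Usp20 (-0.35 ± 0.07, edgeR adjusted p = 0.0194). Usp13 ran at 24.4 and 25.1 CPM in TAU MOL, against 19.1 and 19.4 in WT VEH, 22.1 and 21.4 in TAU VEH and 24.9, 26.2 and 22.5 in WT VEH_HC, so that TAU MOL lay in the range of the home-cage mice. With the trend on GC content and length removed, none of the 86 was called, against 0.0416% of all genes higher and 0.0832% lower. Usp13 then stood at 0.30, Usp34 at 0.17, Usp9x at 0.12, Usp21 at -0.26 and Usp20 at -0.24, with edgeR adjusted p from 0.129 to 0.514. None was called either when any 1 of the 4 libraries compared was left out, where 0.0116% of all genes were called with 1 TAU MOL library left out and 0.0231% with 1 WT VEH library left out, or with the choroid plexus covariate (0.0119% of all). Relative to WT VEH, 8 of 14 choroid plexus markers, 2 of 9 neuron markers (sums of 13241 to 14161 CPM in TAU MOL and 18136 to 18193 in WT VEH), 2 of 9 markers of dentate gyrus, CA1 and CA3 (1312 to 1380 and 1534 to 1672 CPM) and 1 of 6 microglia markers (276 to 313 and 288 to 299 CPM) were called lower, and 1 of 6 astrocyte markers (2335 to 2707 and 2144 to 2157 CPM) higher. The 6 endothelial markers summed to 131 to 154 CPM in TAU MOL and 177 to 193 in WT VEH, with none called. The part of all these markers in the 5 calls was not tested. By library size alone 9 were higher (10.5%, against 4.5% of all genes) and 0 lower (against 1.94%).

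Among all 86 tested genes, 26 were called in any of the comparisons. Of a separate list of 26 genes chosen for description by their known roles, 19 were called in no comparison. These 19 genes had log2 fold changes from -0.47 to 0.33 and a lowest edgeR adjusted p of 0.0591, that of Uba1 with training. They included Ube2a and Ube2b, which act on histone H2B, Ube2l3, which works with the ligase parkin, and Ube2n, which builds signalling chains. Usp14, which sits on the proteasome, ran at 74.7 and 88.6 CPM in WT VEH and 96.4 and 89.6 CPM in TAU VEH (0.19 ± 0.08, edgeR adjusted p = 0.162). Usp46, known to act on glutamate receptors, had log2 fold changes of 0.02 with training and 0.09 between TAU VEH and WT VEH. Usp7, Usp8, Usp16 and Usp30, which act on nuclear proteins, endosomes, histone H2A and mitochondria, differed by 0.04, 0.18, 0.08 and 0.00 between TAU VEH and WT VEH, with an SE of 0.06 to 0.11, and Usp6nl by 0.05 ± 0.10.

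Other genes of the pathway were counted from lists made by function. Of 12 genes for ubiquitin and ubiquitin-like proteins, Rps27a, which encodes ubiquitin fused to a ribosomal protein and has near-identical processed copies that make its counts uncertain, rose with training (38.7 ± 4.88 to 52 ± 1.21 CPM, SD, n = 3 and 2), and Urm1 was lower in TAU VEH. Of 28 E3 ligase genes, 2 rose (Mdm2 and Wwp1) and 2 fell (Huwe1 and Herc1) with training, where 5.35% and 3.05% of all genes did. Against WT VEH, TAU VEH had 7 of them higher and 2 lower, where 3.61% and 10.8% of all genes were, with a median log2 fold change of 0.13 against 0.0041 over all genes. Ube3a, the ligase of Angelman syndrome, was among the higher with 32.5 ± 3.89 CPM against 24.6 ± 0.464 (log2 fold change 0.40 ± 0.10, edgeR adjusted p = 0.0223), and Ube3b was lower (-0.39 ± 0.07, edgeR adjusted p = 0.0027). Another list held 26 tested genes of deubiquitinases or proteins related to them that the name rule does not take in. Among these, Otud6b, Uspl1 and Otub2 rose and Pan2 fell with training, while Vcpip1 was higher and Otub1 lower in TAU VEH. Of 8 partner genes of the E1 and E2 steps, Atg7 fell with training, and Birc6 was higher and Cdc34 lower in TAU VEH. Between TAU MOL and WT VEH the calls were Ube3b, Otub1 and Cdc34, which were lower, and Vcpip1, which was higher. Over all genes 5.02% were lower and 0.612% higher there. Across these lists, once the trend on GC content and length was removed, 0 calls were left between TAU VEH and WT VEH and between TAU MOL and WT VEH, and the training calls that stayed were Rps27a, Mdm2, Otub2 and Uspl1. Of the 14 calls lost between TAU VEH and WT VEH, 12 kept at most 60.6% of their log2 fold change, among them Ube3a at 0.24 (edgeR adjusted p = 0.15), Ube3b at -0.17, Vcpip1 at 0.20, Otub1 at -0.15 and Birc6 at 0.18. The others changed less: Rnf167 moved from -0.21 to -0.22 (edgeR adjusted p = 0.0588 after the correction) and Urm1 from -0.32 to -0.27 (0.107), whereas Cdc34, one of the 12, moved from -0.41 to 0.00 (0.998). With training Pan2 moved from -0.36 to -0.30, Otud6b from 0.43 to 0.27 and Atg7 from -0.28 to -0.23, with edgeR adjusted p from 0.0549 to 0.0592. Wwp1 moved from 0.33 to 0.18, Huwe1 from -0.27 to -0.17 and Herc1 from -0.31 to -0.21, with edgeR adjusted p from 0.0795 to 0.212. None of the genes was called in the basal comparison or between TAU MOL and TAU VEH.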

How the data were processed

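Poly-A RNA libraries were made with a kit that does not mark strand and sequenced as single reads. Per the labels and the study's methods, the authors aligned reads to mm9 with TopHat2 2.0.10 and Bowtie2 2.1.0 and counted uniquely aligned reads per Ensembl gene with HTSeq. The authors deposited these raw read counts, used for all tests, beside a normalized signal (each library's counts over a single factor), which served only to check the columns. Of the learning experiment's lines, 138 without a gene were left out, and 0 columns lacked a sample. Group and replicate number came from the sample labels. Each library is described as a sample of its own, and p-values measure the spread between these samples.

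The 90 genes and all lists were chosen with earlier results of these data known. Counts were tested with edgeR 4.0.16 in R 4.3.3 (TMM factors, filterByExpr, quasi-likelihood F test, Benjamini-Hochberg adjustment over all genes), in 1 model for the 5 basal libraries and another for the 9 learning libraries. The common coefficient of variation was 0.129 in the basal and 0.084 in the learning experiment, so that the few samples per group limited precision more than depth did, except in scarce genes. The script was tested on simulated counts with 200 changed genes. Alternatives were DESeq2 1.42.0, other scalings and filters, a replicate block, a correction for exon GC content and length (loess, span 0.3), a choroid plexus covariate, and leaving out each library. Exon lengths, GC content and repeated 50-base windows came from the mm9 genome with its GENCODE annotation, which gave values for all 90 genes. Promoters came from RefSeq (GRCm38.p6) and were placed on mm9 by exact match. Ufm1 and Park2 stand for 2 rows of the tables each, and the row with more counts was used. Python 3.11.15 with pandas 2.3.3 and matplotlib 3.10.9 made the tables and figures.

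Genes described were a list chosen by function, in each comparison up to 5 called increases and 5 called decreases with at least 100 counts per library on average and no overlap between groups, the 4 lowest unadjusted p-values of the basal comparison, and the 5 highest and 5 lowest levels per kilobase. Genes named outside this rule are marked as such. Of the list chosen by function, 2 genes are not reported here by name, and both are in the counts, the medians and the unnamed points of the fold change figures. The other columns of the deposited tables, with fold changes and p-values of the authors' own comparisons, were not used.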

Additional observations from a re-analysis of the deposited data

How the results depend on the processing

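With training, 12 of the 86 genes were called. The count was 7 with the GC and length correction, 0 with the choroid plexus covariate, 2 with only the 2 groups compared and from 0 to 23 when 1 library was left out, lowest without WT VEH replicate 1 and highest without WT VEH_HC replicate 3. Calls over all genes moved the same way, from 1413 to 744, 0, 310 and from 73 to 2798. For TAU VEH against WT VEH, 16 were called, and 3 with the GC and length correction, 0 with the choroid plexus covariate, 31 by library size alone and from 4 to 10 when 1 library was left out, while those over all genes moved from 2423 to 506, 0, 3598 and from 915 to 1276. For TAU MOL against WT VEH, 5 were called, and 8 by DESeq2, 0 with the GC and length correction, 0 with the choroid plexus covariate, 9 by library size alone, 10 with no filter beyond 1 count, 8 with only the 2 groups compared and 0 to 0 when 1 library was left out, while those over all genes moved from 947 to 1315, 21, 2, 1083, 1590, 1490 and from 2 to 4. With the replicate number as a block, 23 genes were called with training (3000 over all genes). Between TAU MOL and WT VEH it gave 10 (1321 over all genes). The block together with the GC and length correction gave 10 with training (1595 over all genes). The same fit gave 3 between TAU VEH and WT VEH (722 over all genes) and 0 between TAU MOL and WT VEH (54 over all genes). The labels give only a number, and deviations of libraries that share a number correlated at -0.16 to 0.11, so the numbers were not taken as pairs. The basal comparison and TAU MOL against TAU VEH gave 0 under every alternative run. Over all genes these runs called few as well, at most 125 of 24594 and 233 of 25933, both with no filter beyond 1 count. With the choroid plexus covariate 7 called values changed sign: with training Ube2w stood at -0.18, Uba3 at -0.52, Usp11 at 0.13, Usp5 at 0.019, Usp22 at 0.14 and Usp13 at 0.13, and in TAU VEH against WT VEH Usp29 at -0.046. In the other alternatives no called value of a gene described by the rule changed sign (Usp35, outside it, stood at 0.0061 between TAU VEH and WT VEH with the GC and length correction), and over all of these genes and alternatives 3030 values kept their side of the threshold, 351 of them with the other sign and no call in either fit, 144 lost the call and 39 gained one. By library size alone the median over the 86 genes (log2) moved from 0.07 to 0.22 in TAU VEH and from 0.03 to 0.15 in TAU MOL against WT VEH. The cause of these moves was not tested, and scarce genes such as Ube2t, Usp43 and Usp51 are limited by their counts as well.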

Other observations

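Some of the largest fold changes belonged to scarce genes that were not called. Ube2t, an E2 of DNA crosslink repair, ran at 0.338 and 0.265 CPM in WT VEH, 0.534, 0.423 and 0.434 CPM in WT VEH_HC and 0.573 and 0.642 CPM in TAU VEH, so that both TAU VEH libraries were above WT VEH by 0.98 ± 0.37 on the log2 scale (SE, edgeR adjusted p = 0.11). Ube2c, an E2 of the anaphase-promoting complex, ran at 0.653 and 0.742 CPM in WT VEH and 0.966, 1.51 and 0.889 CPM in WT VEH_HC, a log2 fold change of -0.69 ± 0.28 with training (edgeR adjusted p = 0.137), and its exons overlap those of Tnnc2 on the other strand. Uba7, the E1 of ISG15, stood at 2.22 and 2.38 CPM in WT VEH and 3.53, 3.46 and 2.58 CPM in WT VEH_HC (-0.47 ± 0.17, edgeR adjusted p = 0.104). Ube2l6, the E2 that carries ISG15, is named outside the rule for described genes and ran at 3.79 and 3.60 CPM in WT VEH and 3.66, 4.21 and 3.62 CPM in WT VEH_HC, so that its groups overlapped. Usp29 between TAU MOL and WT VEH had the largest fold change of the USP genes, at 6.48 and 6.46 CPM in TAU MOL and 4.04 and 4.66 CPM in WT VEH (0.57 ± 0.16, edgeR adjusted p = 0.0546), just outside the threshold.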
